A study of Mus musculus with 6 samples.

Results

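The genes described here encode the degradative machinery of the lysosome: its proteases, glycosidases, lipase, membrane and cholesterol-handling proteins, and the subunits of the vacuolar proton pump. They were chosen by name, as 26 listed lysosomal genes plus the 22 genes on the array whose symbol starts with Atp6v, which gives 48 of 34797 gene names and 61 of 55681 probes. A gene with several probes, which held for 12 of the 48, was represented by its brightest one. Of the 48 genes, 43 were well above background on all 6 arrays by the files' own mark, 4 on some arrays only (Atp6v0e2, Atp6v0d2, Atp6v0a4 and Atp6v1c2), and 1, Atp6v1b1, on none.

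Each of the 6 groups had 1 single-colour Agilent mouse array of total RNA. All mice were C57BL/6 and were either deficient for TIARP (TIARP-/-, KO) or wild type (TIARP+/+, WT), where TIARP is the name of the Steap4 product, a metalloreductase of cell membranes. The groups were KO and WT peritoneal macrophages drawn 3 days after thioglycollate and given TNFα for 24 h, KO and WT macrophages of the same origin without the TNF label, and KO and WT splenic neutrophils isolated as Ly6G+ cells by magnetic sorting. Hours were stated for the TNF arrays only, so TNF and time in culture cannot be told apart, and the labels number 3 mice per group without stating whether their RNA was pooled. The sources used here do not say which part of Steap4 the deletion removes, and the level of its probe was -2.30 and -4.72 in KO macrophages without and with TNF and -2.64 in KO neutrophils, against -1.49, -3.13 and -2.25 on the WT arrays. This probe was well above background on 5 of the 6 arrays, and its lowest level was that of KO macrophages with TNF.

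A level is the log2 signal of a probe minus the 75th percentile of its array, so that 0 is that percentile, 1 unit is a 2-fold difference, and levels of different probes are not compared. The 75th percentiles lay between 338 and 490 in linear signal for the macrophage arrays and at 224 and 231 for the KO and WT neutrophil arrays. A gene was called higher or lower from a log2 difference of 1 upwards in size, provided that the brighter of both arrays had its probe well above background. If the dimmer one did not, the difference is a lower bound, written "at least". With 1 array per group there was no test, and no difference had a replicate check. The only error that could be measured was between spots of 1 probe on 1 array, whose SD had a median of 0.09 over 399 repeated probes and was between 0.04 and 0.06 for the 10 spots of Gusb.

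As background, lysosomes digest what macrophages and neutrophils engulf. The proton pump acidifies the organelle by coupling ATP hydrolysis in its cytosolic V1 sector to proton transport through its membrane V0 sector, and the low pH activates the cathepsins and glycosidases. Many lysosomal genes are known targets of the transcription factor TFEB, which binds a palindrome that contains an E-box.

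Across the genotypes, most lysosomal genes differed little, and a pair of them stood far outside the rest. In macrophages without TNF, 3 of the 46 members tested were higher in KO (background 4.09% of all genes tested) and 0 were lower (background 1.57%). With TNF, 2 of 45 were higher (background 6.98%) and 0 lower (background 2.69%). In neutrophils, 2 of 45 were higher (background 3.65%) and 3 lower (background 4.74%). The shares of members past 2-fold were thus close to those over all genes. The median log2 difference of the members, KO minus WT, was 0.14, 0.10 and -0.08 in these comparisons, beside 0.07, 0.05 and -0.01 over all genes tested. In the plot of KO minus WT by gene, Atp6v0a4 also lies past the rule in macrophages without TNF, at a bound of 1.34. Apart from Atp6v0a4, Ctse and Atp6v0e2, the points lie in a narrow band around 0 in macrophages and a wider one in neutrophils.

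**Figure D1:**
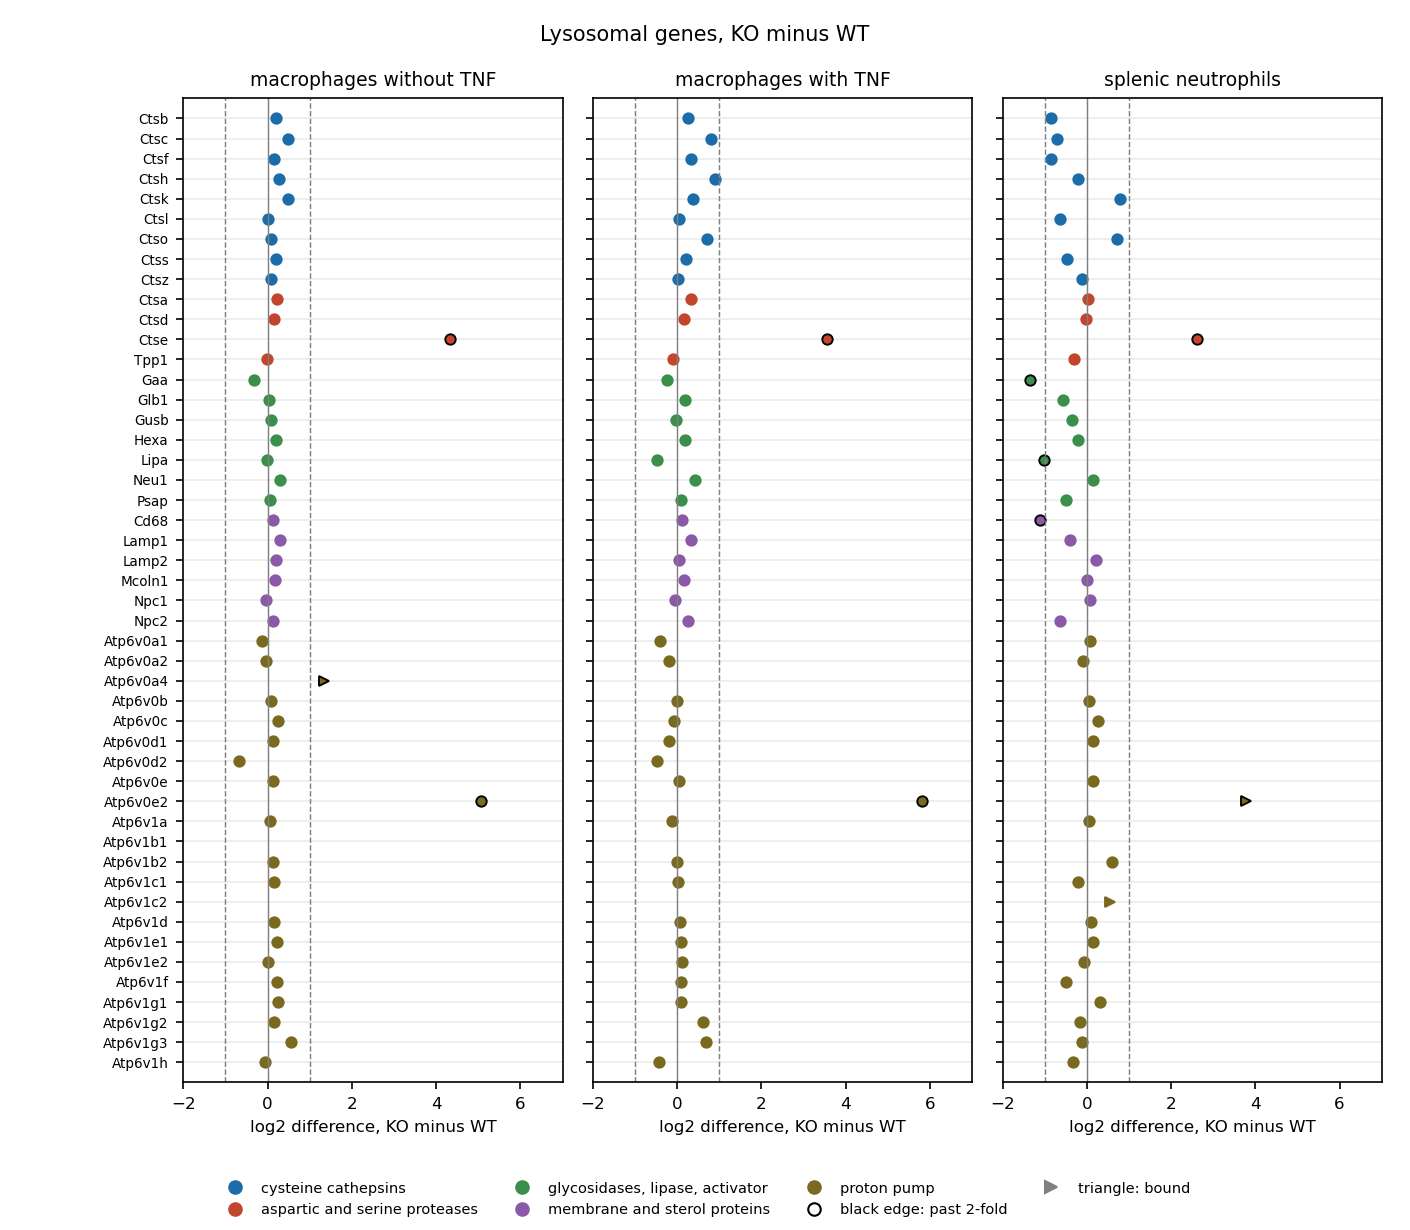
Log2 difference, KO minus WT, of each lysosomal gene (rows, coloured by role) in macrophages without TNF, macrophages with TNF and splenic neutrophils (1 array per group, no error bars). Dashed lines mark 2-fold, a black edge marks genes past the rule, and triangles are bounds; Ctse and Atp6v0e2 are past 2-fold in all 3 panels, and a gene with no point was not well above background on either array.

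Ctse encodes cathepsin E, an aspartic protease that is found mainly in endosomes rather than in lysosomes. Its probe, at chr1:133571990-133572049 (mm9, plus strand), is shown because the result rests on it; its first 30 of 60 bases, in lower case throughout, are
Ctse: gacctgtttttacagttggtttatttgtat
The level of Ctse was 1.28 in KO and -3.04 in WT macrophages without TNF, 0.88 in KO and -2.67 in WT macrophages with TNF, and 3.87 in KO and 1.25 in WT neutrophils. Every KO array lay above the WT array of the same condition, and KO macrophages reached about the level of WT neutrophils. The differences were 4.32, 3.55 and 2.62 on the log2 scale, which are 20.0-fold, 11.7-fold and 6.13-fold higher in KO. All 6 arrays were well above background for this probe, so none of these folds is a bound. With normexp background correction the log2 differences in macrophages were 3.41 and 2.77.

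Atp6v0e2 encodes a variant of the small membrane e subunit of the V0 sector, and its probe lies at chr6:48491579-48491638 (mm9, plus strand). The first 30 of its 60 bases are shown for the same reason:
Atp6v0e2: ttttgggagtggcagcagaatacactatag
The level was 2.31 in KO and -2.75 in WT macrophages without TNF, and 2.69 in KO and -3.11 in WT macrophages with TNF. In neutrophils it was -0.60 in KO and -5.58 in WT, where the WT value was not well above background. KO was higher on every pair of arrays, by 33.3-fold without TNF, 55.8-fold with TNF and at least 13.8-fold in neutrophils. With normexp background correction these log2 differences were smaller, at 4.15 and 4.60 in macrophages and with a bound of 1.55 in neutrophils, in place of 5.06, 5.80 and 3.78. The other e subunit gene, Atp6v0e, differed by 0.13, 0.05 and 0.15 between KO and WT in the same comparisons, and none of these passed the rule.

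By the brightest probe of each gene, these 2 genes were the members higher in KO in all 3 conditions, of 44 tested in each. No member was lower in all 3 by that probe (background 0.41% higher and 0.184% lower of all genes tested in each), but a dimmer probe of Cd68, described below, was. Ctse and Atp6v0e2 lie on chromosomes 1 and 6. Around each, the 5 nearest genes on either side were looked up after the values had been seen. Around Ctse, 0 of the 8, 8 and 7 measured neighbours passed the rule in the macrophages without TNF, those with TNF and the neutrophils. Around Atp6v0e2, 1 of 8, 2 of 8 and 0 of 9 measured neighbours were higher in the same comparisons, and 0 were lower. The background was 4.09%, 6.98% and 3.65% higher, and 1.57%, 2.69% and 4.74% lower. Rarres2, which encodes the chemoattractant chemerin, was higher in KO by 3.35 without TNF and 2.77 with TNF, and by 0.40 in neutrophils. Repin1, on the same side, was below 0 without passing the rule, at -0.82, -0.98 and -0.40. Zfp467, a zinc finger gene on the other side of Atp6v0e2, differed by 0.75, 1.33 and -0.08.

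**Figure D2:**
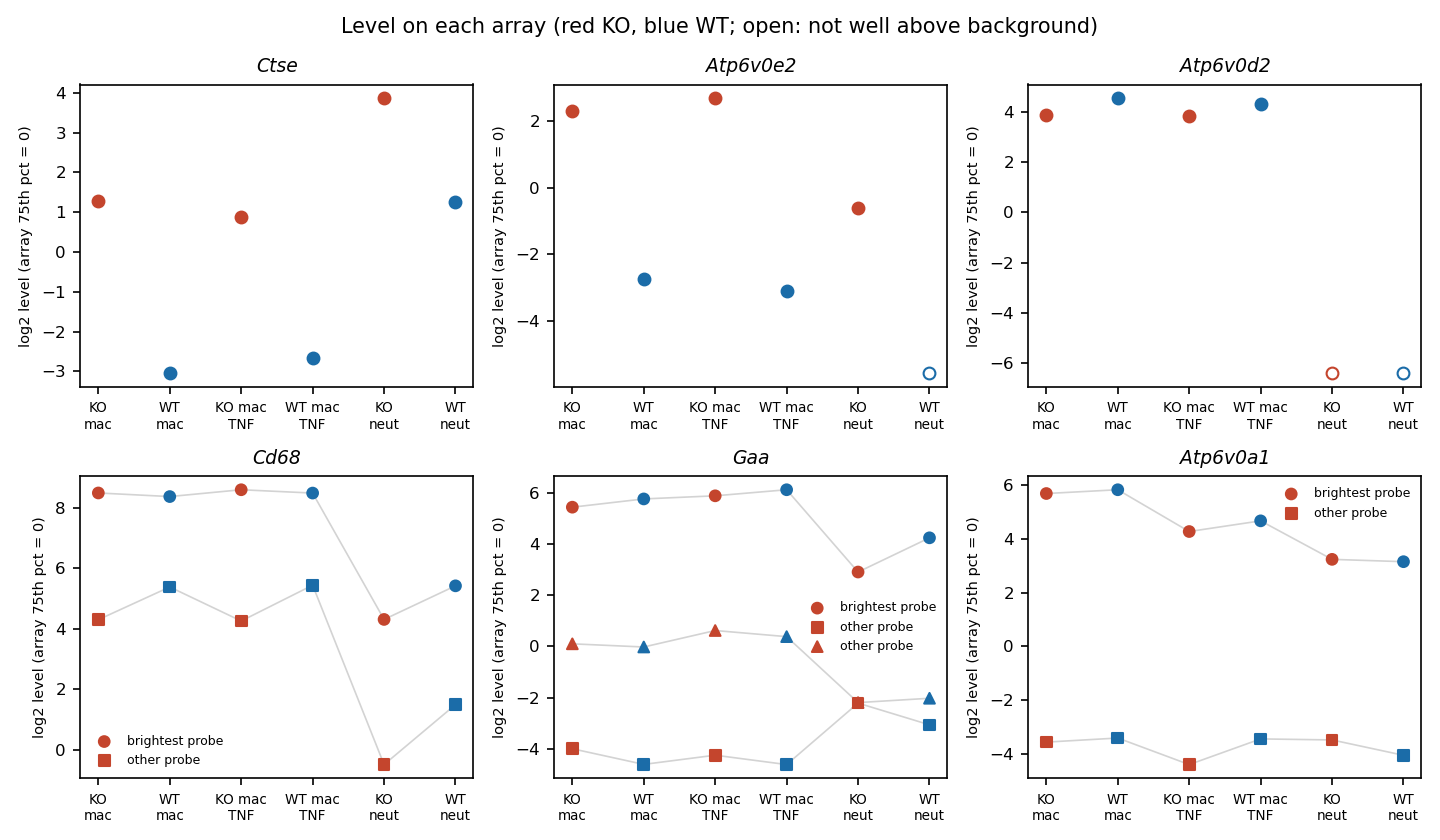
Level of 6 lysosomal genes on each of the 6 arrays, in log2 units relative to the array's 75th percentile, with KO in red, WT in blue and open circles for arrays not well above background. For Ctse and Atp6v0e2 each KO array lies above its WT array; for Cd68, Gaa and Atp6v0a1 grey lines join the values of 1 probe and show that the probes of a gene differ in their KO and WT or TNF pattern.

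The 9 cysteine cathepsins are papain-type proteases. None passed 2-fold between KO and WT in any condition. All 9 were above 0 in macrophages without and with TNF, where 60.6% and 55.8% of all genes tested were above 0. With quantile normalization 6 of the 9 were above 0 in each, so the sign of the smallest values depends on the scaling. In neutrophils 7 of the 9 were below 0, beside 51.3% of all genes tested, and 7 were so with quantile normalization too. Their medians were 0.19, 0.34 and -0.47.

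Cathepsin C (Ctsc), the dipeptidyl peptidase that activates granule serine proteases, had a level of 4.82 in KO and 4.35 in WT macrophages without TNF, 5.08 in KO and 4.28 in WT macrophages with TNF, and 3.15 in KO and 3.85 in WT neutrophils. By this probe KO was above WT in macrophages and below it in neutrophils, whereas a second, dimmer probe of Ctsc gave 0.13, 0.92 and 0.04, so the neutrophil direction rests on 1 of its 2 probes. Cathepsin B (Ctsb), an endopeptidase and dipeptidyl carboxypeptidase, showed differences of 0.21, 0.24 and -0.86. Cathepsin S (Ctss), which trims the invariant chain in antigen-presenting cells, differed by 0.19, 0.22 and -0.47. For both genes the KO neutrophil array was the one below its WT partner.

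Cathepsin H (Ctsh), an aminopeptidase, was the cysteine cathepsin closest to the rule in macrophages with TNF, at 0.90, and it was at 0.26 without TNF and -0.21 in neutrophils. Cathepsin F (Ctsf), linked to invariant chain processing in macrophages, differed by 0.15, 0.34 and -0.84. Cathepsin L (Ctsl), an endopeptidase, differed by 0.02, 0.03 and -0.64, and Ctsz, a carboxypeptidase, by 0.08, 0.01 and -0.10. Ctso and the collagenase Ctsk were above 0 in KO in all 3 conditions, Ctso by 0.08, 0.70 and 0.72 and Ctsk by 0.48, 0.37 and 0.78.

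Of the other proteases, cathepsin D (Ctsd), the main lysosomal aspartic protease, was near 0 throughout, at 0.14, 0.17 and -0.01. Cathepsin A (Ctsa), a serine carboxypeptidase that also protects Neu1 and Glb1 from degradation, differed by 0.22, 0.32 and 0.04. For Ctsa a dimmer probe gave 0.34, 0.45 and -0.49, so its neutrophil value depends on the probe. Tripeptidyl peptidase (Tpp1) differed by -0.01, -0.11 and -0.32. Ctse, described above, was the only 1 of these 4 proteases past the rule.

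The 7 genes for glycosidases, acid lipase and their activator were within 2-fold in macrophages, with medians of 0.06 without TNF and 0.09 with TNF, and 6 of 7 were below 0 in KO neutrophils, with a median of -0.50. With quantile normalization the macrophage medians were -0.04 and -0.10, so their sign depends on the scaling. Acid alpha-glucosidase (Gaa), which degrades glycogen, was lower in KO neutrophils, at 2.90 against 4.24 in WT neutrophils, a difference of -1.34. Acid lipase (Lipa), which hydrolyses cholesteryl esters and triglycerides, was also lower there, at 1.15 against 2.17 in WT, a difference of -1.02. In macrophages without and with TNF, Gaa differed by -0.32 and -0.24 and Lipa by -0.01 and -0.48. Both genes passed the rule in neutrophils and in neither macrophage comparison, a contrast between cell types that was not tested.

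Gaa had 3 probes, and they did not move together, which is why all 3 are shown by their first 30 of 60 bases (mm9, chromosome 11, plus strand).
Gaa at chr11:119146697-119146756: caggttcccaagactcgagaaacttactgt
Gaa at chr11:119136014-119136073: gtgtatgtgttcctaggcccagagcccaag
Gaa at chr11:119134572-119134631: gtttactgccttagtcctcatggctcactt
The first of them is the brightest and gave the difference of -1.34 in neutrophils. The second gave -0.17 and the third 0.85, KO minus WT, so the Gaa result rests on 1 of 3 probes. The first and second were designed against a RefSeq transcript and the third against an Ensembl transcript.

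The other members of the set did not pass the rule in neutrophils. Beta-galactosidase (Glb1) differed by -0.57, the saposin precursor Psap by -0.50, beta-glucuronidase (Gusb) by -0.36 and the alpha subunit of beta-hexosaminidase (Hexa) by -0.21. Sialidase (Neu1) was at 0.16. In macrophages without and with TNF the values were 0.04 and 0.19 for Glb1, 0.06 and 0.09 for Psap, 0.09 and -0.03 for Gusb, 0.21 and 0.18 for Hexa, and 0.28 and 0.43 for Neu1.

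Among the 6 membrane and sterol proteins, Cd68 (macrosialin, a heavily glycosylated lysosomal membrane protein of macrophages) was the 1 gene past the rule, and it passed in neutrophils. Its level was 8.49 in KO and 8.37 in WT macrophages without TNF, 8.59 in KO and 8.48 in WT macrophages with TNF, and 4.31 in KO and 5.42 in WT neutrophils. The neutrophil difference was -1.11. A second, dimmer probe of Cd68 was lower in KO by more than 2-fold on every pair of arrays, at -1.08, -1.18 and -1.98. Both probes are shown because they disagree in macrophages (mm9, chromosome 11, minus strand, first 30 of 60 bases).
Cd68 at chr11:69477775-69477834: gcctcatctcttcaccatgccactgactca
Cd68 at chr11:69478979-69479038: ccgaatcctatacccaattcagggtggaag
The first, brightest probe was designed against an Ensembl transcript and the second against a RefSeq transcript. The macrophage difference of Cd68 therefore depends on the probe, whereas both probes were lower in KO neutrophils.

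The structural proteins Lamp1 and Lamp2, the most abundant glycoproteins of the lysosomal membrane, differed by 0.30, 0.33 and -0.39 and by 0.20, 0.04 and 0.22. Mcoln1, the lysosomal calcium channel, differed by 0.19, 0.17 and 0.01. The cholesterol exporters Npc1 and Npc2 differed by -0.03, -0.06 and 0.07 and by 0.13, 0.25 and -0.65. None of these genes passed the rule in any of the 3 conditions.

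Of the 22 pump genes, 20, 19 and 19 could be tested in the macrophages without TNF, those with TNF and the neutrophils, and the members past the rule were Atp6v0e2 and, without TNF, Atp6v0a4, with medians of 0.14, 0.02 and 0.09 for the whole group. The median with TNF was -0.07 with quantile normalization, so its sign depends on the scaling. Atp6v0a4, an a subunit known from kidney intercalated cells, was well above background on the array of KO macrophages without TNF alone, with a level of -4.27 against -7.70 in WT macrophages, and the bound on the difference was at least 2.53-fold. With TNF the same gene was not well above background in either genotype. Atp6v1c2, a C subunit form, was well above background on the KO neutrophil array alone, with a level of -3.84 against -6.47 in WT neutrophils, and its bound of 0.54 on the log2 scale does not say whether the difference reached 2-fold.

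None of the broadly expressed subunits passed the rule. In the V1 sector, the catalytic subunit Atp6v1a differed by 0.06, -0.13 and 0.05, Atp6v1b2 by 0.14, -0.01 and 0.60, and Atp6v1c1 by 0.14, 0.02 and -0.20. For Atp6v1d, Atp6v1e1 and Atp6v1g1, which form the rotor and stalks, the values in the 3 conditions ranged from 0.07 to 0.31. The regulatory subunit Atp6v1h was at -0.07, -0.42 and -0.34, and Atp6v1f at 0.21, 0.09 and -0.49.

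In the V0 sector, the proteolipids Atp6v0b and Atp6v0c differed by 0.08, 0.00 and 0.05 and by 0.24, -0.08 and 0.25. Atp6v0d1 was at 0.13, -0.19 and 0.15, and the a subunit genes Atp6v0a1 and Atp6v0a2 at -0.14, -0.40 and 0.09 and at -0.04, -0.20 and -0.08. For Atp6v0a1 a dimmer probe gave -0.15, -0.95 and 0.57. The osteoclast-type d subunit, Atp6v0d2, had a level of 3.88 in KO and 4.56 in WT macrophages without TNF and 3.85 in KO and 4.34 in WT macrophages with TNF. KO was lower on both pairs, at -0.68 and -0.49, short of 2-fold, and both of its probes gave nearly the same values (-0.71 and -0.54 for the dimmer one). Dim tissue-restricted forms, Atp6v1g2, Atp6v1g3 and Atp6v1e2, were between 0.02 and 0.68 in macrophages. A second probe of Atp6v1g2 gave -0.04 without TNF and -0.40 with TNF.

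Lysosomal genes outside the set were counted too. Of 27 other lysosomal hydrolases, 14 other lysosomal membrane proteins, 9 genes of mannose 6-phosphate sorting and 15 genes of lysosomal transcription and mTORC1 control, 0 were past the rule between KO and WT in any of the 3 conditions. Of 6 further pump partners, Dmxl2, a pump-assembly factor, was higher in KO neutrophils by 1.23. Of 4 cystatin-type cathepsin inhibitors, Cst7 was higher in KO macrophages without TNF by 1.21, and Cst6 was lower in KO neutrophils, with a bound of -1.90. These lists were drawn up with earlier results of these data known.

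Markers of other cell types moved with genotype too, and in bulk RNA fewer cells of a type and less RNA per cell cannot be told apart. In KO neutrophils 7 of 14 macrophage markers were lower and 1 higher, with a median of -1.01, and their summed linear level, relative to the 75th percentile, was 364 in KO and 574 in WT neutrophils. Of 7 erythroid markers, 6 were higher there and 1, Epor, was lower, at -1.04. Their summed levels were 1667 in KO and 683 in WT neutrophils. Plasma cell markers were lower, 4 of 6, at 257 in KO and 718 in WT neutrophils. In KO macrophages 6 of 11 mature neutrophil markers were higher without TNF and 5 of 11 with TNF. Their summed levels were 456 in KO and 177 in WT without TNF, and 505 in KO and 249 in WT with TNF. B cell markers were higher as well, 6 and 7 of 8 tested, at 21.1 in KO and 7.11 in WT without TNF. Mesothelial and fibroblast markers were lower in KO macrophages, 3 of 8 without TNF, at 149 in KO and 265 in WT, and 2 of 8 with TNF, at 121 in KO and 251 in WT. The part of these cells in the lysosomal differences was not tested.

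TNF changed few of these genes by 2-fold, and largely in the same way in both genotypes. Of 46 members tested in KO macrophages, 1 was higher with TNF (background 4.46%) and 1 lower (background 3.73%). In WT macrophages the counts were also 1 higher (background 4.41%) and 1 lower (background 4.61%), of 45. The genes were the same in each genotype, and both encode V0 subunits of the pump. A dimmer probe of Mcoln1 gave -0.87 in KO and -1.14 in WT, against -0.11 and -0.09 for its brightest probe. The medians over members were -0.08 in KO and -0.06 in WT macrophages, beside 0.02 and 0.02 over all genes.

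Atp6v0b, a proteolipid of the proton channel ring, was the higher one. Its level with TNF was 6.56 in both KO and WT macrophages, against 5.47 in KO and 5.39 in WT macrophages without TNF. The differences, TNF minus no TNF, were 1.09 in KO and 1.17 in WT, which are 2.13-fold and 2.25-fold. Atp6v0a1, an a subunit that anchors the pump's stator, was the lower one. It had a level of 4.27 in KO and 4.67 in WT macrophages with TNF, against 5.69 in KO and 5.83 in WT macrophages without TNF, differences of -1.41 and -1.16. Both arrays with TNF lay below both without it. A second, dimmer probe of Atp6v0a1 gave -0.84 in KO and -0.03 in WT, so the size of that decrease depends on the probe.

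Probes behind these values are shown by their first 30 of 60 bases (mm9), with the brighter of the Atp6v0a1 probes first.
Atp6v0b at chr4:117557184-117557243, minus strand: tccagagtgaagatgggtgactagatgacc
Atp6v0a1 at chr11:100924969-100925028, plus strand: accctgtccaaggccttctgtccagacatc
Atp6v0a1 at chr11:100910359-100910418, plus strand: actacttccagttccagctatttaaaattc

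Several other pump genes were above 0 with TNF without passing the rule, Atp6v1e1 at 0.76 in KO and 0.87 in WT, Atp6v1h at 0.32 and 0.67, Atp6v0c at 0.29 and 0.60, and Atp6v0e at 0.39 and 0.47. Over the pump genes, the median was 0.17 in KO and 0.17 in WT macrophages. The hydrolase groups had medians below 0, at -0.31 in KO and -0.34 in WT for the glycosidases with lipase and activator. Lipa was at -0.94 in KO and -0.47 in WT, Hexa at -0.54 and -0.51, and Npc1 at -0.63 and -0.60. Outside the pump, the largest values above 0 in both genotypes were those of Ctsk, at 0.75 in KO and 0.86 in WT, Ctsz, at 0.62 and 0.69, and Neu1, at 0.63 and 0.48.

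**Figure D3:**
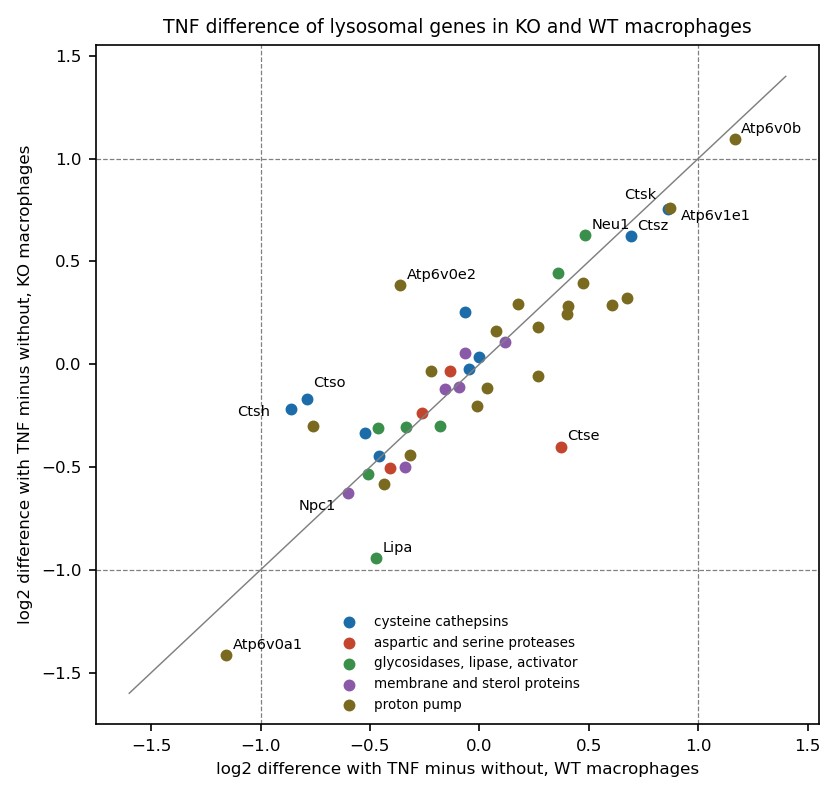
Log2 difference, TNF minus no TNF, of each lysosomal gene in KO macrophages (y axis) against WT macrophages (x axis), with 1 point per gene measured on all 4 arrays, coloured by role. The solid line marks equal differences and the dashed lines 2-fold; Atp6v0b and Atp6v0a1 lie past 2-fold in both genotypes, and Ctse and Atp6v0e2 lie farthest from the line.

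Across the 45 members measured on all 4 macrophage arrays, the TNF differences in KO and WT had a Pearson correlation of 0.85 and shared the sign in 38. Over all 21742 genes measured on the same arrays, the correlation was 0.82. The correlations run across genes, which are not independent replicates, and all points share the 4 arrays. For the difference between the TNF differences, KO minus WT, 0 of 45 members were higher (background 1.49%) and 0 lower (background 0.621%). By the brightest probes, the extremes were Ctse, at -0.77, and Atp6v0e2, at 0.75. Dimmer probes gave -0.80 for Atp6v0a1 and 0.78 for Ctsc. For Ctse, TNF minus no TNF was -0.40 in KO and 0.37 in WT, and for Atp6v0e2 it was 0.38 in KO and -0.36 in WT. Ctsh, at -0.22 in KO and -0.86 in WT, and Ctso, at -0.17 and -0.79, came next among the cathepsins by their brightest probes.

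Elsewhere in the pathway, TNF arrays were higher for Acp5, the tartrate-resistant phosphatase, by 1.54 in KO and 1.49 in WT macrophages. Legumain (Lgmn), the asparaginyl endopeptidase that processes cathepsins, was lower, at -1.74 in KO and -1.73 in WT. The phospholipase Pla2g15 was at -1.84 in KO and -1.88 in WT, and the endolysosomal channel gene Tpcn1 at -1.69 and -1.43. The cystatin Cst7, which restrains cysteine cathepsins, was higher with TNF by 5.58 in KO and 6.96 in WT, and the difference between these, KO minus WT, was -1.38. Acp2, at 1.13, passed the rule in KO, whereas Tfec, at 1.20, and Fnip2, at -1.15, passed it in WT. Of the genes named in this paragraph, only Cst7 passed the rule for the difference between the TNF differences, KO minus WT.

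Neutrophils carried lower levels of most lysosomal genes than macrophages without TNF in both genotypes. Of 47 members tested in KO, 36 were lower in neutrophils (background 19.6%) and 3 higher (background 25.3%). In WT, 34 of 45 were lower (background 17.9%) and 1 higher (background 26.4%). The median log2 difference, neutrophils minus macrophages, was -2.20 in KO and -2.02 in WT, beside 0.10 and 0.12 over all genes tested. These cells differ in organ and purification as well as in type, and thioglycollate was stated for the macrophages only. These factors cannot be told apart.

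All 6 membrane and sterol genes were lower in neutrophils in each genotype, with medians of -2.94 in KO and -2.65 in WT. A dimmer probe of Mcoln1 fell short of the rule, at -0.48 in KO and -0.59 in WT. Of the 7 glycosidase, lipase and activator genes 6 were lower by their brightest probe, with Neu1 short of the rule at -0.98 in KO and -0.85 in WT. For Gaa the brightest probe gave -2.53 in KO and -1.52 in WT. Its dimmest probe was higher in neutrophils past the rule, at 1.78 in KO and 1.55 in WT. The remaining Gaa probe was lower past the rule in both genotypes, so the direction for Gaa depends on the probe. Lipa differed by -4.79 in KO and -3.77 in WT, and Gusb by -4.08 and -3.63. The levels of Gusb were 2.08 in KO and 2.44 in WT neutrophils, against 6.16 in KO and 6.07 in WT macrophages. Cd68 differed by -4.18 in KO and -2.95 in WT, and Npc2 by -3.49 and -2.71.

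Cysteine cathepsins spread widely. Ctsk had levels of -2.12 in KO and -2.90 in WT neutrophils, against 6.24 in KO and 5.76 in WT macrophages, which makes it 327-fold lower in KO and 405-fold lower in WT. Ctsl differed by -6.14 in KO and -5.48 in WT. Ctsb was at -2.18 and -1.11, Ctss at -2.07 and -1.41, and Ctsz at -2.48 and -2.30. Ctsh was at -1.44 in KO and -0.97 in WT and Ctsc at -1.68 and -0.50, so each passed the rule in KO and not in WT, a difference that was not tested. A dimmer probe of Ctsc went the other way, at 0.98 in KO and 1.08 in WT. Ctsf, at -0.43 in KO and 0.56 in WT, passed in neither, and Ctso passed in KO alone, at 1.10 against 0.46 in WT.

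The probe of Ctsk at chr3:95313165-95313224 (mm9, plus strand) and that of Atp6v0d2 at chr4:19805367-19805426 (mm9, minus strand) are shown because these genes had the largest falls between the cell types, again by their first 30 of 60 bases.
Ctsk: catttcagtcttccactgagatgcacaaat
Atp6v0d2: agcagaatgcatctcacagaggcatcgaac

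Within the pump, the paired d subunits behaved differently. Atp6v0d2 did not rise well above background in neutrophils of either genotype and was at least 315-fold lower than in macrophages in KO and at least 491-fold lower in WT. The broadly used Atp6v0d1 had levels of 3.09 in KO and 2.93 in WT neutrophils, against 4.72 in KO and 4.59 in WT macrophages, differences of -1.63 and -1.65. Other core subunits had larger differences, Atp6v1c1 of -3.83 in KO and -3.48 in WT, Atp6v1a of -3.52 and -3.51, and Atp6v1b2 of -2.63 and -3.09. Atp6v0a1 was at -2.45 and -2.68, Atp6v0c at -2.15 and -2.17, Atp6v1h at -2.52 and -2.25, and Atp6v1e1 at -2.20 and -2.13.

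Some pump genes did not pass the rule between the cell types. Atp6v1f, a small subunit of the rotor, differed by -0.82 in KO and -0.11 in WT, and Atp6v0a2, an a subunit linked to the Golgi, by -0.39 and -0.34. Atp6v1e2, Atp6v1g2 and Atp6v1g3, all dim, lay between -0.46 and 0.45. A second probe of Atp6v1g2, well above background on 5 arrays, gave -1.33 in KO and -0.92 in WT. Atp6v0b and Atp6v1d, at -1.59 and -1.53 in KO and -1.56 and -1.47 in WT, stood with Atp6v0d1, Atp6v0e (-1.54 and -1.56) and Atp6v1g1 (-1.55 and -1.61). Atp6v0e2 was lower in neutrophils, at -2.90 in KO. In WT, where the neutrophil array was not well above background, it was also lower, with a bound of -1.63 on the log2 scale. Atp6v1c2 was well above background on the KO neutrophil array alone, at least 2.75-fold higher than in KO macrophages.

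Ctse was the member higher in neutrophils in both genotypes. It was higher in neutrophils than in macrophages by 2.59 in KO and 4.29 in WT, which are 6.00-fold and 19.6-fold. Other lysosomal genes past the rule upwards were Idua, a glycosidase of glycosaminoglycan breakdown, at 2.86 in KO and 2.61 in WT, and the sialic acid exporter Slc17a5, at 3.16 and 2.81. The rest of these lists leaned downwards, where the background was 19.6% lower in KO and 17.9% in WT. Of 27 other hydrolases 18 were lower in KO and 16 in WT, as were 9 and 8 of 14 other membrane proteins. Of the mannose 6-phosphate sorting genes 5 of 9 were lower in KO and 4 in WT, and of the transcription and mTORC1 genes 12 and 10 of 15. The pump's a3 subunit gene, Tcirg1, was at -3.22 in KO and -3.28 in WT.

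**Figure D4:**
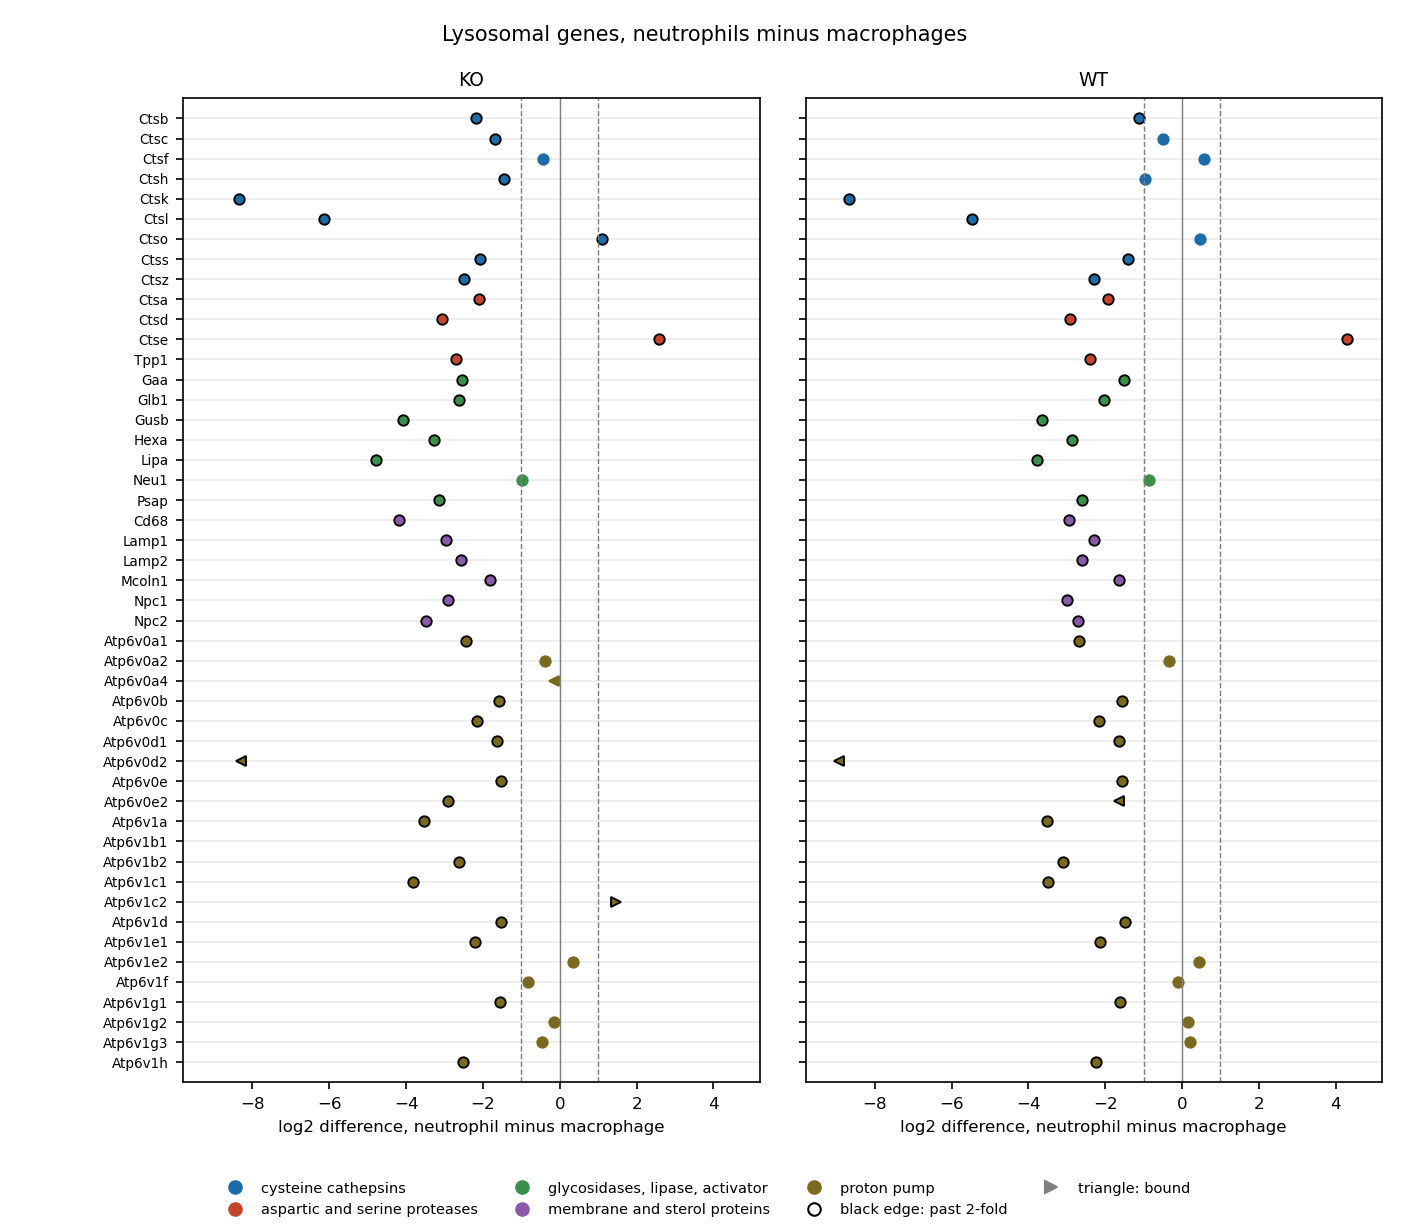
Log2 difference, neutrophils minus macrophages without TNF, of each lysosomal gene (rows, coloured by role) in KO (left) and WT (right), 1 array per group and no error bars. Dashed lines mark 2-fold, a black edge marks genes past the rule and triangles are bounds; most points lie left of the lower line, with Ctse to the right in both panels.

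Defining markers were measured for both labels. The summed level of 11 mature neutrophil markers was 2769 in KO and 2238 in WT neutrophils, against 456 in KO and 177 in WT macrophages. Macrophage markers summed to 364 in KO and 574 in WT neutrophils, against 790 in KO and 636 in WT macrophages, and of these 14 markers 13 in KO and 14 in WT neutrophils were well above background. B cell markers summed to 555 in KO and 591 in WT neutrophils, against 21.1 in KO and 7.11 in WT macrophages. The neutrophil arrays thus showed the markers of their label at the higher level, together with those of other cells of the spleen, whose part in the lysosomal levels was not tested.

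The 2 genotypes gave similar cell type differences, with a Pearson correlation of 0.97 over 43 members measured on the 4 arrays and 0.92 over 20772 genes, again across genes that share arrays. The largest gap between the genotypes was 1.71, for Ctse. Values close to the threshold were those of Lipa (-1.02, KO minus WT in neutrophils), Atp6v0b (1.09, TNF in KO) and Ctso (1.10, neutrophils minus macrophages in KO) just past it. Just short of it were Neu1 (-0.98, neutrophils minus macrophages in KO), Ctsh (-0.97, the same in WT) and Lipa (-0.94, TNF in KO).

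The promoters of the members were searched for the letters of the E-box, CACGTG, and of the TFEB core, TCACGTGA. Both are palindromes, so either strand gives the same match, and every TFEB core contains an E-box. RefSeq promoter windows (GRCm38.p6, 250 bases before to 50 after the start site) were at hand for 38 of the 48 members. An E-box was present in 12 of these genes, 31.6%, beside 8.09% of all 27025 genes in the table. The TFEB core was present in 6 of them, 15.8%, beside 1.12% of all genes. A match is a description of letters, not of binding.

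The stretches around the core of these 6 genes, Ctsa, Ctsd, Mcoln1, Atp6v0d1, Atp6v1a and Atp6v0e, are shown 5′ to 3′ on the gene's strand, with the core in capitals (RefSeq, GRCm38.p6). Ctsa carries 2 copies, whose first bases lie 13 bases before the start site and at position 5 after it.
Ctsa, plus strand, chr2:164833734-164833772: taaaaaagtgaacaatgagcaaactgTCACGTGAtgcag
Ctsa, plus strand, chr2:164833766-164833795: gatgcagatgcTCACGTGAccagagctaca
Ctsd, minus strand, chr7:142387893-142387952: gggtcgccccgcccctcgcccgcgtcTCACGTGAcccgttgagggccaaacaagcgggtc
Mcoln1, plus strand, chr8:3500447-3500506: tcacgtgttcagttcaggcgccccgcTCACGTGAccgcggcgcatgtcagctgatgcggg
Atp6v0d1, minus strand, chr8:105566050-105566079: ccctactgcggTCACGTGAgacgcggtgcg
Atp6v1a, minus strand, chr16:44139358-44139417: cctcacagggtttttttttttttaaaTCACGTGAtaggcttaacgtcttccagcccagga
Atp6v0e, plus strand, chr17:26676387-26676416: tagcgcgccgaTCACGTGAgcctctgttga

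For neutrophils minus macrophages, the median of the genes with the core was -1.96 in KO and -1.79 in WT, beside -2.45 and -2.13 for the 31 and 29 members without it that could be tested. All 6 were lower in neutrophils in each genotype, as were 22 of the 31 in KO and 21 of the 29 in WT. Split by the E-box instead, the medians were -2.32 with and -2.20 without it in KO, and -1.79 with and -2.17 without it in WT, so the order of the medians differed between splits and genotypes. For KO minus WT, the 6 had medians of 0.14, 0.11 and 0.04 in the macrophages without TNF, those with TNF and the neutrophils, and none passed the rule. With TNF their medians were -0.08 in KO and -0.05 in WT macrophages. Atp6v0e2 had neither motif in its window. Ctse was among the 10 members without a window, so it was not searched.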

How the data were processed

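Total RNA of 6 groups of cells, 1 array each, was labelled with Cy3 and read on Agilent mouse arrays. Per the file headers, the authors' deposited intensity values came from Agilent Feature Extraction 10.7.3.1, with background subtracted and the array detrended, on a linear scale and not scaled between arrays. With 1 slide and 1 scan run for the 6 arrays, there was no batch to test. Probe coordinates were on mm9, and promoter sequences came from RefSeq, GRCm38.p6.

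From these intensities log2 was taken here with pandas 2.3.3. Outlier spots (101 to 121 per array) were left out, repeated spots were averaged, and the 75th percentile over gene probes was subtracted. The brightest probe stood for a gene. A gene was called at a 2-fold difference with its probe well above background on the brighter array. For a bound, the dim array's signal was raised to its lowest signal well above background where it lay under that. For the difference of TNF differences, all 4 macrophage arrays had to be well above background. No spot was saturated (0), and with 1 array per group no test was run. The number of arrays limits the precision.

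The members, gene lists, markers and the rule for named genes (every member past 2-fold, up to 6 in each direction where many were, and those nearest the threshold) were chosen with earlier results of these data known. Of the listed genes, Rbcn3 and Azu1 had no match on the array. The alternatives were quantile normalization and normexp background correction (limma 3.58.1, offset 50), centring on detected probes, 2 other filters, the median over probes, removal of an intensity trend (lowess, span 0.3) and a 1.5-fold rule.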

Additional observations from a re-analysis of the deposited data

How the results depend on the processing

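Each gene past 2-fold was recomputed under 8 alternatives: of 695 such values for 88 differences, 682 kept direction and rule, 12 lost the rule and 1 changed sign. The 1 that changed sign was Atp6v1c2, neutrophils minus macrophages in KO, at -0.12 with the intensity trend removed, and it also missed the rule with quantile normalization (0.86) and normexp (0.90). In KO minus WT, Atp6v0a4 without TNF missed it with normexp (0.53), Lipa in neutrophils with normexp (-0.94) and trend removal (-0.98), and Gaa in neutrophils with the median over probes (-0.17). With TNF, Atp6v0a1 in WT missed it with the median over probes (-0.60 on the log2 scale) and Atp6v0b in KO with trend removal (0.98). In neutrophils minus macrophages, Ctso in KO missed it with normexp (0.91) and trend removal (0.81), Ctsc in KO with the median over probes (-0.35), and Atp6v0e2 in WT with normexp, which gave a bound of 0. Ctse and Atp6v0e2, KO minus WT, passed the rule in all 3 conditions wherever they were tested, but normexp moved their log2 differences without TNF, with TNF and in neutrophils to 3.41, 2.77 and 2.51 for Ctse and to 4.15, 4.60 and a bound of 1.55 for Atp6v0e2. Counts of members past the rule moved as follows. With only probes well above background on all arrays, which leaves out Atp6v0e2, 1 member passed for KO minus WT without TNF and 1 with TNF. With the median over probes, 1 passed for TNF in WT. Without a filter, 1 passed for the difference of TNF differences. At 1.5-fold the counts were 7 for KO minus WT with TNF and 13 in neutrophils, 8 for TNF in KO and 11 for TNF in WT, and 4 for the difference of TNF differences. Medians over members moved with quantile normalization to 0.016 for KO minus WT without TNF, -0.24 for TNF in WT and -2.20 for neutrophils minus macrophages in WT, with trend removal to -0.23 for TNF in WT, and with normexp to -2.36 for neutrophils minus macrophages in KO. With quantile normalization the median over members, KO minus WT with TNF, was -0.02, and all-gene calls there were 1150 higher and 738 lower, against 1654 and 637 with scaling to the 75th percentile and 1300 and 861 with trend removal; normexp gave 586 and 234. The cause of these moves was not tested. For WT neutrophils minus macrophages, quantile normalization moved the median over all genes to 0.00 and normexp to 0.29, and trend removal gave 4653 genes higher and 6079 lower, against 6627 and 4490. For dim probes such as Atp6v0a4, Atp6v1c2 and Atp6v1b1, signal over background limits what could be seen.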
